A study of Mus musculus with 6 samples.

Results

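The oligodendrocyte lineage and myelin genes are a set of 34 genes that mark oligodendrocytes, the cells that wrap axons of the central nervous system in myelin, and the precursors they come from. A gene was taken where the array annotation gave a probe set to its symbol alone, and 33 of the 34 had such a probe set, out of 22180 genes in all. Each of the 33 was read by a single probe set. The gene not analysed here is Enpp2, which encodes the secreted enzyme autotaxin. The members fall into 10 precursor genes, 6 genes of maturing cells, 3 transcription factors of the whole lineage and 14 measured genes of myelinating cells. These stages were assigned from textbook knowledge, and several precursor genes (Ptprz1, Bcan, Cspg5 and Vcan) are also made by astrocytes.

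Total RNA from ventral midbrain of male mice, 2 months of age, was measured on 6 mouse gene arrays, 3 labelled Bach1 KO and 3 labelled wild type. BACH1 is a repressor of transcription that is released from DNA by heme and occupies the same elements as the activator NRF2. The structure of the knockout allele, the strain and whether replicates were separate animals are not given in the sources used here, so p-values measure only the spread between these samples. The values are log2 levels for 41345 probe sets, and array medians ran from 5.58 to 5.69. The Bach1 probe set read 7.59, 7.68 and 7.70 on the knockout-labelled arrays and 7.46, 7.59 and 7.57 on the wild-type arrays. The knockout label thus came with no lower reading (log2 difference 0.11, 95% interval -0.085 to 0.31; limma, adjusted p = 0.74). A probe set that reads outside the altered part of a gene checks nothing. Hmox1, the best known target of BACH1, was higher on all 3 knockout-labelled arrays (log2 difference 1.95; limma, adjusted p = 0.0181). With any single array left out its difference was 1.88 to 2.03, and the call was lost (limma, adjusted p from 0.134 to 0.233), as it was with the replicate number as a block (adjusted p = 0.544). Directions follow the labels.

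Oligodendrocyte precursors carry the growth factor receptor PDGFRA and the surface proteoglycan NG2, and they stay in the adult brain as dividing cells. When they differentiate they pass through a short stage marked by GPR17, then switch on the transcription factor MYRF and the proteins and lipids of the myelin sheath. OLIG1, OLIG2 and SOX10 are transcription factors present through the lineage. The ventral midbrain holds myelinated tracts such as the cerebral peduncle beside grey matter. In tissue RNA, fewer cells of a type and less RNA per cell cannot be told apart.

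None of the 33 members differed between the genotypes by the test. Limma called 0 members at an adjusted p under 0.05, against 0.00726% of all probe sets, and 0 members had an unadjusted p under 0.05, against 8.27% of all probe sets (4.97% higher and 3.3% lower). With variances fitted to a trend and made robust, 1 member, Tmem100, passed the unadjusted threshold. Of the 33, 14 averaged higher and 19 lower with the knockout label, and their median log2 difference was -0.017, beside -0.0098 over all 22180 genes. Among all genes 46.9% averaged higher. Centring the arrays on their medians shifted the difference of every gene on the arrays, member or not, by -0.047. The split of the members was then 6 higher and 27 lower, and without knockout-labelled replicate 2 it was 23 higher and 10 lower. Without wild-type replicate 1 it was 18 and 15, and without each of the other 4 arrays in turn 8 to 10 were higher. The differences ran from -0.24 for Tmem100 to 0.17 for Ugt8a. The intervals are per gene and rest only on the spread between these samples, so they set no joint bound on the members. Limma draws the variance of each gene toward a value shared by all probe sets. An interval can therefore be wider than the gene's own values imply. The 95% interval of a member reached at most 0.62 on the log2 scale from 0, that of C1ql1, which is a 1.54-fold difference. The median half-width of these per-gene intervals was 0.26, near the 0.27 of all genes. Adjusted p-values lay between 0.621 and 0.999. Values of the groups did not overlap for 2 members (6.06%), 1 higher and 1 lower, against 14.3% of all probe sets in either direction, 7.4% higher and 6.86% lower.

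**Figure D1:**
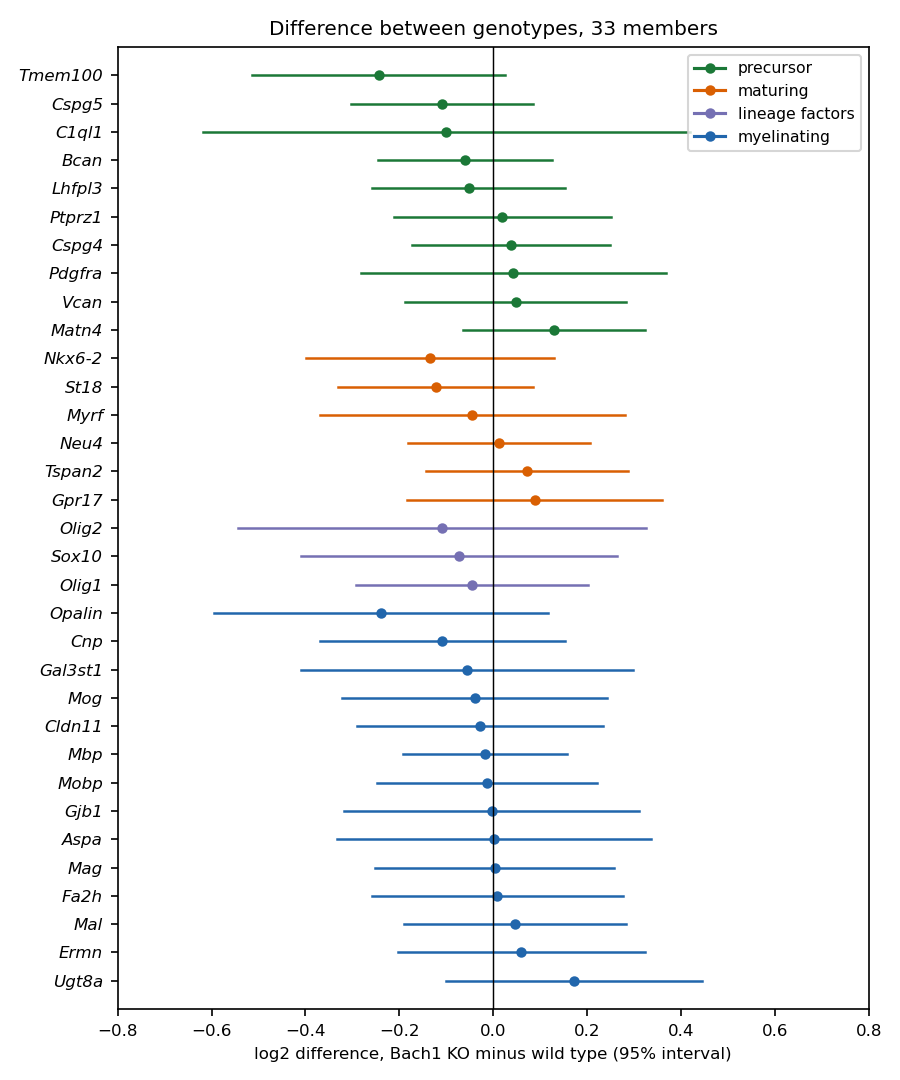
Log2 difference between the knockout-labelled and wild-type means (x axis) for each of the 33 members (y axis), coloured by stage; points are estimates and lines are 95% intervals from limma. Every interval includes 0, and the intervals stay within 0.62 of it.

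The 10 precursor genes were evenly split, 5 averaging higher and 5 lower with the knockout label around a median of -0.017. The split was 2 higher and 8 lower with centred arrays, without knockout-labelled replicate 3 and without wild-type replicate 1. Pdgfra, the receptor for platelet-derived growth factor that drives precursor division, read 8.64, 8.39 and 8.65 on knockout-labelled replicates 1 to 3 and 8.30, 8.68 and 8.58 on wild-type replicates 1 to 3. The low values were on knockout-labelled replicate 2 and wild-type replicate 1, and the groups overlapped. The log2 difference was 0.043 (SE 0.13, 95% interval -0.28 to 0.37; limma, adjusted p = 0.949). Cspg4, which encodes the NG2 proteoglycan, read 7.003, 6.904 and 7.048 against 6.991, 6.853 and 6.996, and its groups overlapped closely, with a log2 difference of 0.038 (95% interval -0.17 to 0.25).

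The members whose groups did not overlap were both in the precursor list. Cspg5, a membrane proteoglycan of glia and neurons, read 10.09, 10.08 and 10.08 on the knockout-labelled arrays and 10.13, 10.28 and 10.17 on the wild-type arrays. All 3 knockout-labelled values were lower and within an SD of 0.0045, yet the log2 difference of -0.11 had an interval of -0.30 to 0.084 and did not pass (limma, adjusted p = 0.742). Matn4, an extracellular matrix protein, read 5.53, 5.68 and 5.61 against 5.47, 5.51 and 5.46. Its knockout-labelled values were all higher by a small margin (log2 difference 0.13, 95% interval -0.064 to 0.32; limma, adjusted p = 0.705). Its mean level over the arrays, 5.54, lay nearest of all members to the threshold for dim probe sets (5.07, under which 40% of probe sets average), and no member lay below that threshold.

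Tmem100, a small membrane protein also made by endothelial cells, had the smallest p of the 33. It read 7.70, 7.60 and 7.85 under the knockout label and 7.81, 8.06 and 8.01 under the wild-type label. Only knockout-labelled replicate 3 and wild-type replicate 1 overlapped. The log2 difference was -0.24 (SE 0.11, 95% interval -0.51 to 0.025; limma, unadjusted p = 0.0688, adjusted p = 0.621). All 15 endothelial and mural cell markers also averaged lower with the knockout label, by a median of -0.22 on the log2 scale. Limma called 0 of them, and 1 (6.67%) had an unadjusted p under 0.05, against 8.27% of all probe sets. The part of vessel cells in the Tmem100 value was not tested.

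C1ql1, a secreted protein of the C1q family, had the widest range over the arrays of any member, 0.82. It read 8.60, 7.95 and 8.78 on the knockout-labelled arrays and 8.54, 8.60 and 8.49 on the wild-type arrays. Knockout-labelled replicate 2 was the low value, and the other 5 arrays lay within 8.49 to 8.78. The remaining precursor genes lay closer to 0. Vcan, Bcan and Ptprz1, which encode matrix proteoglycans and a receptor phosphatase, had log2 differences of 0.048, -0.061 and 0.019, and Lhfpl3, a membrane protein, had -0.052.

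The 6 genes of maturing cells divided in the same way, 3 averaging higher and 3 lower around a median of -0.016. Gpr17, the receptor that marks committed precursors, read 8.21, 8.09 and 8.31 on the knockout-labelled arrays and 8.23, 8.18 and 7.94 on the wild-type arrays. The groups overlapped, with wild-type replicate 3 the lowest array (log2 difference 0.088, 95% interval -0.18 to 0.36; limma, adjusted p = 0.86). A further probe set that the annotation shares between Gpr17 and Lims2 was not assigned to either gene. Myrf, the factor that switches on myelin genes, read 10.33, 9.96 and 10.30 against 10.39, 10.14 and 10.19. Its low value was on knockout-labelled replicate 2 and its high value on wild-type replicate 1 (log2 difference -0.045, 95% interval -0.37 to 0.28).

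Nkx6-2, a homeobox factor of oligodendrocytes, read 8.34, 8.18 and 7.99 on the knockout-labelled arrays and stayed at 8.28, 8.31 and 8.33 on the wild-type arrays. Its low value was on knockout-labelled replicate 3, unlike that of Myrf (log2 difference -0.14, 95% interval -0.40 to 0.13; limma, adjusted p = 0.764). St18, a zinc finger factor, read 7.71, 7.91 and 7.76 against 7.91, 7.93 and 7.90, where knockout-labelled replicate 2 overlapped the wild-type values (log2 difference -0.12, 95% interval -0.33 to 0.084). Tspan2, a tetraspanin of oligodendrocytes, read 10.05, 10.01 and 9.97 against 10.07, 9.89 and 9.86, with a log2 difference of 0.072. Neu4, a sialidase, spanned 0.12 over all 6 arrays and had a log2 difference of 0.013.

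The 3 lineage factors all averaged lower with the knockout label, by small amounts that did not pass (median log2 difference -0.073). Olig2 read 9.55, 8.97 and 9.23 on the knockout-labelled arrays and 9.57, 9.34 and 9.17 on the wild-type arrays, a log2 difference of -0.11 (95% interval -0.54 to 0.33; limma, adjusted p = 0.896). Sox10 read 9.36, 9.04 and 9.18 against 9.48, 9.25 and 9.07, and Olig1 read 10.84, 10.57 and 10.75 against 10.86, 10.71 and 10.72. In all 3 genes the lowest array was knockout-labelled replicate 2 and the highest was wild-type replicate 1. Without knockout-labelled replicate 2 all 3 means were higher in the knockout-labelled group, and the median became 0.030. Without wild-type replicate 1, 2 were higher and 1 lower, with a median of 0.0026, so the direction rests on these arrays. Olig1 and Olig2 are neighbours on chromosome 16 with 0 protein-coding genes between them, and 73 protein-coding genes separate them from Bach1 on the same chromosome in the RefSeq table.

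Of the 14 measured genes of myelinating cells, 6 averaged higher and 8 lower with the knockout label, and the median log2 difference was -0.0083. This split turned with single arrays. It was 11 higher and 3 lower without knockout-labelled replicate 2 or without wild-type replicate 1. It was 2 and 12 without wild-type replicate 2 or with centred arrays, and 3 and 11 without each of the other 3 arrays in turn. Mbp, the basic protein that compacts the sheath, was the steadiest member. It read 12.0410, 11.9996 and 12.0607 on the knockout-labelled arrays and 12.0575, 12.0533 and 12.0429 on the wild-type arrays, a range of 0.061 over the 6 arrays. Its log2 difference was -0.017 (SE 0.072, 95% interval -0.19 to 0.16; limma, adjusted p = 0.964). Mog, a glycoprotein of the outer sheath, read 11.78, 11.41 and 11.58 against 11.73, 11.59 and 11.57 and had a log2 difference of -0.039. Mag, the glycoprotein that faces the axon, read 11.75, 11.47 and 11.69 against 11.73, 11.60 and 11.57 and had a log2 difference of 0.0038. In Mog and Mag alike, knockout-labelled replicate 2 was the lowest array and knockout-labelled replicate 1 the highest.

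Mobp, another basic protein of compact myelin, read 12.13, 11.92 and 12.08 against 12.15, 12.04 and 11.97, with a log2 difference of -0.013. Cnp, an enzyme that keeps cytoplasmic channels open in the sheath, read 10.10, 9.81 and 10.12 on the knockout-labelled arrays and 10.16, 10.09 and 10.10 on the wild-type arrays. Its wild-type values were tight, at 10.12 ± 0.035 (SD, n = 3), and the single low value was knockout-labelled replicate 2 (log2 difference -0.11, 95% interval -0.37 to 0.15; limma, adjusted p = 0.811). Without that replicate the difference of Cnp was -0.0091.

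The members with the smallest p in this stage lay on opposite sides of 0. Opalin, a membrane glycoprotein of the sheath, read 9.48, 9.08 and 9.53 on the knockout-labelled arrays and 9.75, 9.54 and 9.52 on the wild-type ones. This gave a log2 difference of -0.24 (SE 0.15, 95% interval -0.60 to 0.12; limma, adjusted p = 0.704), or -0.097 without knockout-labelled replicate 2. Ugt8a, the transferase that makes the myelin lipid galactocerebroside, read 10.93, 10.68 and 10.88 against 10.80, 10.52 and 10.66. Here the difference was positive, at 0.17 (SE 0.11, 95% interval -0.10 to 0.44; limma, adjusted p = 0.715), with overlapping groups. The other lipid enzymes were nearer 0. Fa2h, which adds the hydroxyl group to galactolipid fatty acids, had a log2 difference of 0.0088, and Gal3st1, which makes sulfatide from galactocerebroside, had -0.056.

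The junction and membrane proteins Cldn11 (claudin of the radial component), Gjb1 (connexin 32), Mal and Ermn had log2 differences of -0.027, -0.0035, 0.046 and 0.060. Aspa, which releases acetate from N-acetylaspartate for lipid synthesis, had 0.0012. Aspa showed how far arrays of 1 group could differ. It read 10.15, 9.80 and 10.29 on the knockout-labelled arrays, an SD of 0.25, while the wild-type arrays read 10.11, 10.07 and 10.06, an SD of 0.030.

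**Figure D2:**
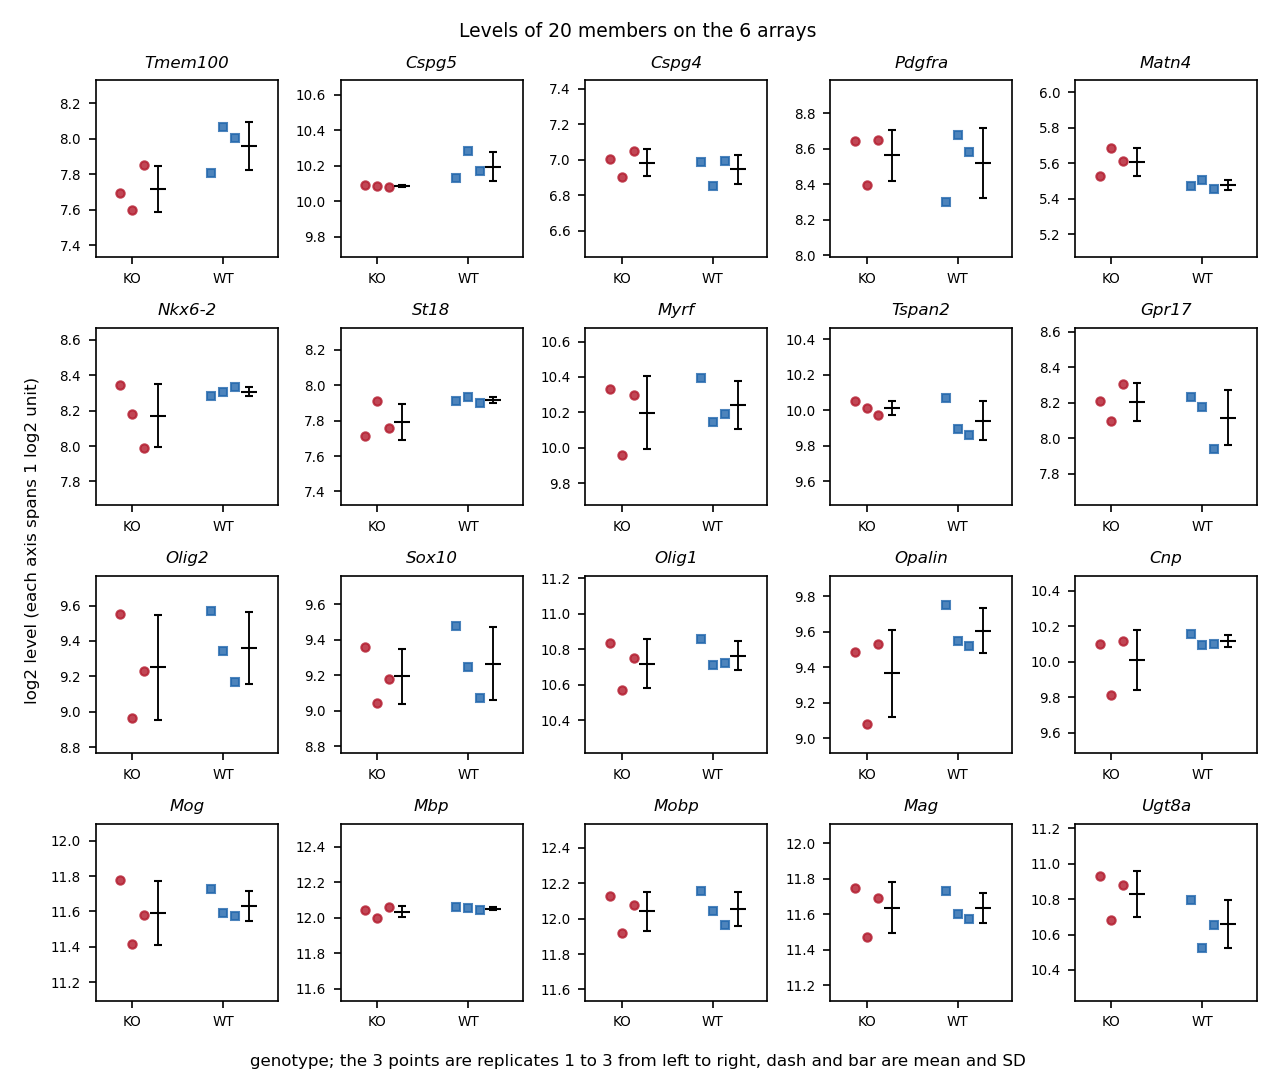
Log2 level (y axis, each panel spanning 1 log2 unit) of 20 members on the 3 knockout-labelled arrays (circles) and 3 wild-type arrays (squares), replicates 1 to 3 from left to right; the dash and bar are the mean and SD of a group (n = 3). Knockout-labelled replicate 2 is the lowest of all arrays in Olig1, Olig2, Sox10, Myrf, Mog, Mag, Mbp, Mobp, Cnp, Opalin and Tmem100, and only Cspg5 and Matn4 show groups that do not overlap.

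Promoters were searched for the core letters TGACNNNGC of the element that BACH1 and NRF2 bind with small Maf proteins, on both strands. RefSeq promoter windows (GRCm38.p6, 250 bases before to 50 after a start site) were held for 23 of the 33 members, 32 windows in all. The letters were present in 4 of these windows (12.5%), 1 each of Cnp, Opalin, Gjb1 and Vcan, and in 12.4% of all 32851 windows, so the members were close to the share of all promoters. The 4 windows are shown because they are the members' promoters that hold the letters, which stand in capitals.
Cnp (chr11:100574689-100574988, strand +): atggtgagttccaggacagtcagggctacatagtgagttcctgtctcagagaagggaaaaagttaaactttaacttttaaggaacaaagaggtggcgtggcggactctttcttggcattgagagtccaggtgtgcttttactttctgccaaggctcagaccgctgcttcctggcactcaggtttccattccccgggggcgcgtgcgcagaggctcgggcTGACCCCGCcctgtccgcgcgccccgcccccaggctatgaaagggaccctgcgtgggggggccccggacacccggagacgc
Opalin (chr19:41077064-41077363, strand -): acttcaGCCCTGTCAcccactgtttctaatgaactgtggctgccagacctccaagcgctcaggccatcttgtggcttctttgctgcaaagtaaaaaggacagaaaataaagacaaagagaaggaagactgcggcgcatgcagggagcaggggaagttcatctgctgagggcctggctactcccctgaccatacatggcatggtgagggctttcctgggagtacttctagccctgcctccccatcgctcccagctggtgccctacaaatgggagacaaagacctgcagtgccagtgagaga
Gjb1 (chrX:101376985-101377284, strand +): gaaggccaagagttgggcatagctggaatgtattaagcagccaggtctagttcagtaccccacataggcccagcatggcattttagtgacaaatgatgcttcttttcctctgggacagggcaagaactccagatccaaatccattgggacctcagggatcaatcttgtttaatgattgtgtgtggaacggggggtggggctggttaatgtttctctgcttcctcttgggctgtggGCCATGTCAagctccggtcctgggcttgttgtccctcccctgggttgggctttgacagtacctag
Vcan (chr13:89742463-89742762, strand -): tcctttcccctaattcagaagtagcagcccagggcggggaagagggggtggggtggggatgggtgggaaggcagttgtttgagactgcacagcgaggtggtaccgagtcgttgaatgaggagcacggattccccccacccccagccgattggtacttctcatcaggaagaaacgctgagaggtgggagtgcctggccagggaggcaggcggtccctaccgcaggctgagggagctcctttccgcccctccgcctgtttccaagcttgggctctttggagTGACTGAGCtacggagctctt
The match in Cnp is TGACCCCGC and starts at position -31 from the start site. That in Opalin is on the reverse strand and starts at position -244, that in Gjb1 is on the reverse strand at position -15 of 1 of its 4 windows, and that in Vcan starts at position 30 after the start. The log2 differences of these genes were -0.11, -0.24, -0.0035 and 0.048, and none passed. The E-box CAGCTG, a sequence that OLIG proteins can bind and that reads the same on both strands, was in windows of Aspa, Lhfpl3, Matn4 and Opalin. These were 4 of 32 windows (12.5%), against 16.3% of all windows. The 2 motifs share no letters in the Opalin window, where CAGCTG starts at position -1. A match describes the letters and is not a binding site.

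Differences between single arrays were described for each stage. Each gene's mean over the 6 arrays was subtracted from its log2 level, and these deviations were averaged within a stage for each array. For the 14 myelinating genes this was 0.086, -0.17 and 0.063 on knockout-labelled replicates 1 to 3 and 0.12, -0.042 and -0.053 on wild-type replicates 1 to 3. The means of these values were -0.0076 for the knockout-labelled and 0.0076 for the wild-type arrays, with an SD of 0.12 within groups. All 14 genes were below their own mean on knockout-labelled replicate 2, and all 14 were above it on wild-type replicate 1. Knockout-labelled replicate 2 was the lowest array for 10 of the 14 (71.4%). Among all genes it was the lowest for 24.6%, and among the brightest 10% of genes, with means of at least a log2 level of 9.56, for 30.6%. In those bright genes the median deviation on that array was -0.027, beside -0.16 for the median of the myelinating genes.

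In the lineage factors knockout-labelled replicate 2 was again the lowest array and wild-type replicate 1 the highest, with larger steps. Their deviations were 0.16, -0.23 and -0.038 on the knockout-labelled arrays and 0.21, 0.0084 and -0.11 on the wild-type arrays. The maturing genes had smaller ones, from -0.058 on knockout-labelled replicate 2 to 0.066 on wild-type replicate 1. The precursor genes had another order, at -0.014, -0.10 and 0.074 on the knockout-labelled arrays and -0.039, 0.060 and 0.023 on the wild-type arrays. Knockout-labelled replicate 2 was low in both, but for precursor genes the median deviation there was only -0.059, with C1ql1 alone at -0.54. Wild-type replicate 1, the highest array for myelinating genes, was below the mean for precursor genes. The precursor deviation minus the myelinating deviation was lowest there, at -0.16, and highest on wild-type replicate 2, at 0.10.

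**Figure D3:**
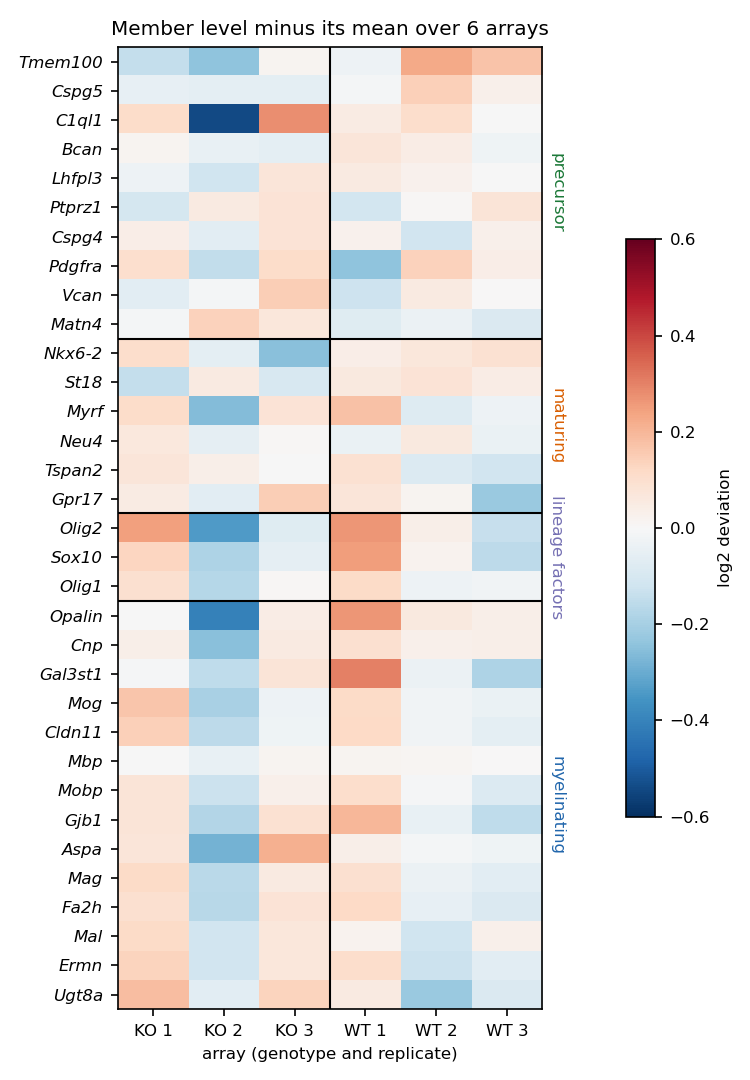
Log2 level of each member (rows, grouped by stage) minus its mean over the 6 arrays, on each array (columns); red is above and blue below the mean. Knockout-labelled replicate 2 is blue in all 14 myelinating genes and all 3 lineage factors, wild-type replicate 1 is red in all of them, and the precursor rows share no single pattern.

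Covariation over the arrays was described by Pearson's r between pairs of members, without a test, since all pairs share the same 6 arrays. Among myelinating genes the median r over 91 pairs was 0.74, and all pairs were positive. Over all pairs of the 22180 genes the median was 0.006. The value was 0.83 after the genotype means were subtracted and 0.60 without knockout-labelled replicate 2. The 3 lineage factors had a median r of 0.94 with one another and 0.83 with the myelinating genes. Precursor genes had a median of 0.25 with one another, which was 0.054 after renewed quantile normalization, and 0.088 with the myelinating genes. Maturing genes had a median of 0.052 with one another.

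Single members differed in how far they followed the myelinating genes. Myrf had a median r of 0.88 with them, the highest of any member outside the stage with Olig1 at 0.86. Among myelinating genes the medians ran from 0.56 for Ugt8a to 0.84 for Mobp. The precursor genes split. C1ql1 and Lhfpl3 had medians of 0.69 and 0.67 with the myelinating genes, and Cspg4 and Bcan had 0.48 each. Pdgfra had 0.047, and Ptprz1, Matn4 and Vcan had -0.64, -0.40 and -0.21. St18, a maturing gene, had -0.46. With 6 arrays, of which 1 or 2 set most of the spread, single coefficients of this size are imprecise.

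Other oligodendrocyte genes, from a list that holds none of the members, showed the same arrays as low and high. Of 50 genes, 46 were measured, among them Apod, Bcas1, Car2 and Pllp. Their deviations were 0.066, -0.14 and 0.021 on the knockout-labelled arrays and 0.11, -0.031 and -0.031 on the wild-type arrays. Knockout-labelled replicate 2 was the lowest array for 29 of the 46 (63.0%), and wild-type replicate 1 was the highest for 25 (54.3%, against 18.2% of all genes). Between genotypes 14 averaged higher and 32 lower (median log2 difference -0.028), with 0 called in either direction and 0 at an unadjusted p under 0.05 (limma). Mcam, an adhesion molecule, had a log2 difference of -0.25 (95% interval -0.56 to 0.063) and Cdk18, a kinase of oligodendrocytes, had -0.18 (95% interval -0.41 to 0.054).

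Genes that regulate or feed the lineage gave 0 calls as well. The 20 measured regulators held 9 higher and 11 lower means around a median of -0.021, and 0 were at an unadjusted p under 0.05. The homeobox factor gene Nkx2-2 had a log2 difference of -0.23 (95% interval -0.58 to 0.12), and Hes5, a target of Notch, had -0.24 (95% interval -0.62 to 0.14). The 22 signals and receptors held 7 higher and 15 lower means around a median of -0.052. The Notch ligand gene Jag1 was the 1 gene of this list (4.55%) with an unadjusted p under 0.05 (limma), against 8.27% of all probe sets. It read 6.82, 6.77 and 6.95 on the knockout-labelled arrays and 7.03, 7.37 and 7.31 on the wild-type arrays. The groups did not overlap (log2 difference -0.39, 95% interval -0.68 to -0.11, limma, adjusted p = 0.537). Such separation was seen in 2 genes of the list (9.09%), against 14.3% of all probe sets. Jag1 is also made by vessel cells, whose markers were lower too, and their part in it was not tested. Bmp4, a ligand that holds back differentiation, had a log2 difference of -0.62 with a wide 95% interval of -1.27 to 0.033. Of 18 measured genes of cholesterol synthesis, which supplies the sheath, 10 were higher and 8 lower, with a median of 0.0022. Tm7sf2 had -0.16 and Nsdhl -0.13, both enzymes of the later steps.

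Markers of other cells and regions were read on the same arrays, as deviations from the 6-array mean. Myelinating genes were lowest on knockout-labelled replicate 2. There the mean of the 10 measured cortex and hippocampus markers was highest (0.31, against -0.16 to 0.12 on the other arrays). On that array the 12 meningeal markers were at -0.66 and the 15 endothelial and mural markers at -0.23, the lowest of all arrays. Single cortex and hippocampus markers varied unevenly over the arrays (median range 0.54, largest 2.25), and 1 was dim. On wild-type replicate 1, where myelinating genes were highest, meningeal markers were at -0.64, against 0.66 and 0.61 on the other wild-type arrays. The 15 general neuron markers stayed between -0.045 and 0.052 and the 16 astrocyte markers between -0.041 and 0.054 on all 6 arrays. The 14 microglia markers ran from -0.085 to 0.060, and the 11 choroid plexus and ependyma markers from -0.13 to 0.16. The 13 dopamine neuron markers ran from -0.17 on wild-type replicate 3 to 0.23 on knockout-labelled replicate 3. Of the choroid plexus and ependyma markers 2 were dim, and the largest range of a single one over the arrays was 2.30. All 13 dopamine neuron markers were above the threshold for dim probe sets. So were all 12 meningeal and all 8 measured Schwann cell markers, so passing that threshold does not check the labelled tissue. The 8 measured Schwann cell markers, for nerve roots with another kind of myelin, ran from -0.070 to 0.087. The part of any of these in the array differences of the myelin genes was not tested.

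**Figure D4:**
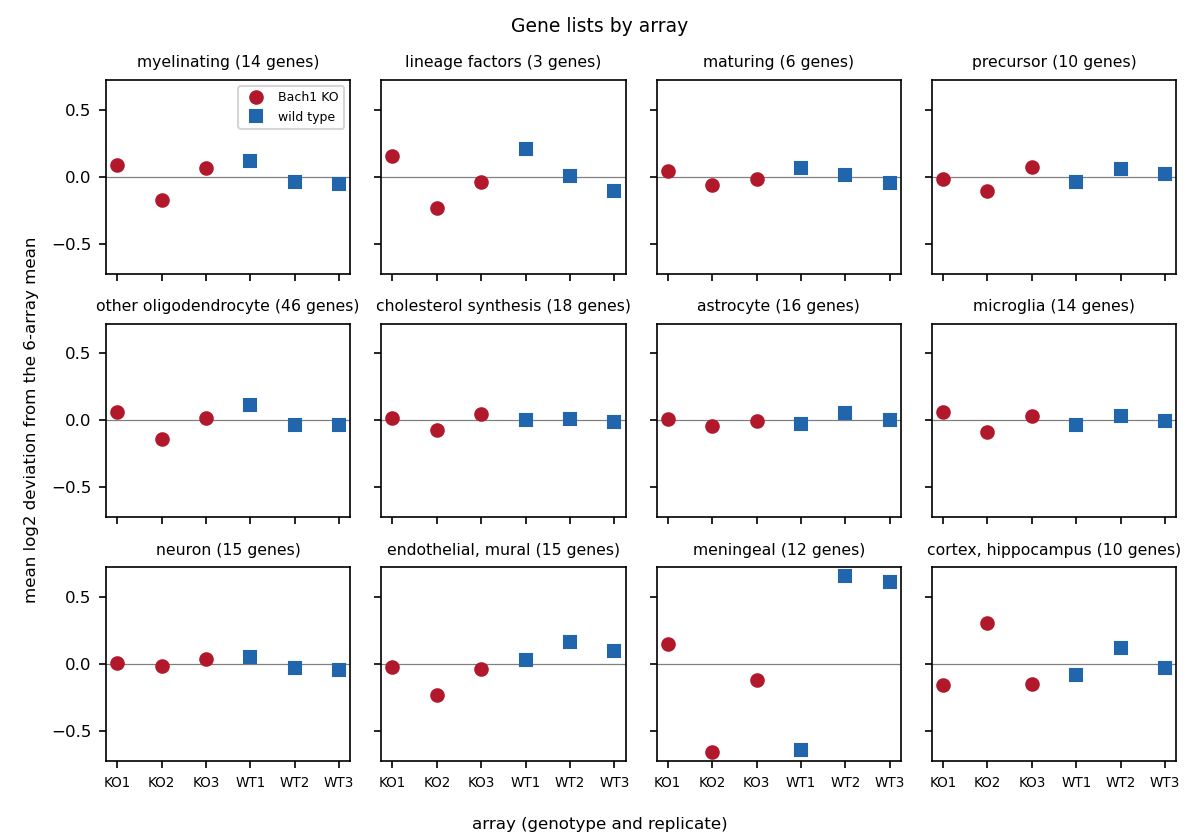
Mean log2 deviation from the 6-array mean (y axis) on each array (x axis) for the 4 stages, 2 further lists of the lineage and 6 lists of other cells or regions; circles are knockout-labelled and squares wild-type arrays. The myelinating, lineage factor and other oligodendrocyte panels share the low knockout-labelled replicate 2 and the high wild-type replicate 1, while neuron and astrocyte markers stay within 0.054 of 0.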

How the data were processed

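Each array came as 1 column of log2 levels that the authors had made with RMA (background correction, normalization between arrays and summary per probe set), per the submitters' processing notes. A version of RMA and a genome build are not given in the sources used here. That the scale is log2 follows from the range, 0.745 to 14.1. RMA compresses differences of dim probe sets, and brightness differs between probes, so levels of different genes were not compared. The number of arrays limits the precision.

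In the platform annotation 23521 probe sets have 1 gene, 1814 have several and 16010 have none, and names were updated through Entrez identifiers to RefSeq (23328 matched). There were 0 further columns of sample values. All 41345 probe sets were fitted with limma 3.58.1 (lmFit, eBayes) in R 4.3.3 on 3 knockout-labelled and 3 wild-type arrays without covariates. The fit was also run on simulated data with independent noise for each probe set, which leaves out the covariation between genes described above. P-values were adjusted over the whole table (Benjamini-Hochberg) and called under 0.05, and intervals are at 95%. At most 0.256% of values were identical between 2 arrays. Whether replicate numbers pair the samples is not given in the sources used here. Deviations from the group means had r of 0.077, -0.029 and 0.020 between arrays of numbers 1, 2 and 3. Between arrays of different numbers r ran from -0.081 to 0.070. Such values cannot decide whether samples were paired.

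Members and lists were chosen with earlier results of these data known. Values on every array are given for 12 fixed members and for the 3 members of each stage (2 lineage factors) with the smallest p. From each further list the 2 genes with the smallest p are named. C1ql1 and Aspa were picked for their spread, after seeing it. Alternatives were other variance models, renewed normalization, centring, array weights, no dim probe sets, a replicate block and leaving out each array.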

Additional observations from a re-analysis of the deposited data

How the results depend on the processing

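The count of 0 called members held under every alternative run. Probe sets called numbered 3 and were 0 with the replicate block and with any single array left out, so the Hmox1 call was lost there. Members at an unadjusted p under 0.05 numbered 0, and 1 with trend and robust variances; leaving out an array gave 0 to 1, Tmem100 each time, without knockout-labelled replicate 3 or wild-type replicate 1. Probe sets at that threshold numbered 3419, 2252 without dim probe sets and 2469 to 4007 with an array left out. Members with a higher mean numbered 14, 6 with centred arrays (an alternative chosen after seeing the data, as was this count) and 8 to 23 with an array left out, 8 without knockout-labelled replicate 3, 9 without wild-type replicate 2 and 23 without knockout-labelled replicate 2. Without an array the stage medians ran from -0.039 to 0.031 (precursor), -0.049 to 0.057 (maturing), -0.17 to 0.030 (lineage factors) and -0.047 to 0.066 (myelinating), with the upper ends without knockout-labelled replicate 2. Centring shifted every difference by -0.047 and turned the sign of 8 members, Cspg4 (-0.0086), Pdgfra (-0.0041), Mag (-0.043), Ptprz1, Neu4, Aspa, Fa2h and Mal. Among the 20 members plotted by array, the sign also turned for Mobp with array weights (0.0078), and leaving out an array turned Cspg4 (-0.0084 to 0.079), Pdgfra (-0.068 to 0.13), Myrf (-0.11 to 0.074), Olig2 (-0.26 to 0.033), Sox10 (-0.17 to 0.033), Olig1 (-0.10 to 0.030), Mog (-0.13 to 0.049), Mobp (-0.057 to 0.048) and Mag (-0.052 to 0.086); the cause was not tested. The median pairwise r of precursor genes was 0.054 after renewed quantile normalization, and without an array it was 0.18 to 0.23 (precursor), -0.091 to 0.12 (maturing), 0.89 to 0.96 (lineage factors) and 0.60 to 0.81 (myelinating). Averaging probe sets or leaving out dim members altered nothing here, since each member had 1 probe set and none was dim. With the replicate block 3352 probe sets had an unadjusted p under 0.05 (limma), and whether these numbers pair the samples is not known.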
